A study of Mus musculus with 41 samples.

Results

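The genes Amy1, Camk2b, Gca, Hspb7, Ppp1r1a, Satb1, Inmt, Nol3, Hipk2 and Mef2c, are described here, 10 in all, in mouse bone and fracture callus. They are part of 19938 genes measured, and they were chosen by their log2 intensities at day 5 after fracture, for a higher mean in old than in young callus. Each was read from the only probe set annotated to it alone. Tibiae of young (5 months) and old (25 months) mice from the NIH aged rodent colony were stabilised with an intramedullary pin and broken on both sides by 3-point bending under isoflurane, with buprenorphine for pain. RNA was taken at days 0, 5, 10 and 20 and hybridized to 41 Affymetrix Mouse Gene 1.0 ST arrays, each from a different mouse. Each age and day had 5 arrays, except old day 0 with 6. The labels used here give no strain, and they call every extract callus, day 0 included, although some were whole bone. Which array held which, and whether day 0 bones were pinned, is not given, and a change in the tissue taken cannot be told apart from the change between days 0 and 5.

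Closed fractures of long bones heal through a cartilage callus that is replaced by bone, while the muscle lying against the bone is injured and regenerates beside it. Callus dissected from a tibia can therefore carry muscle, and whole bone carries marrow with its red-cell and neutrophil precursors. Among these genes Mef2c is a transcription factor of muscle, bone and cartilage, Camk2b and Ppp1r1a pass on calcium and cyclic AMP signals, and Hspb7 and Nol3 protect heart and muscle cells. Satb1 folds chromatin, Hipk2 is a nuclear kinase, Gca is a calcium-binding protein of leukocytes, and Amy1 and Inmt are enzymes.

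The tissue label was checked first. The mean log2 intensity of 13 cartilage genes was 5.38 ± 0.21 (SD, n = 5) in young bone at day 0, 6.33 ± 0.83 at day 5 and 8.58 ± 0.44 at day 10, and in old mice 5.27 ± 0.17 (n = 6), 6.12 ± 0.53 and 9.46 ± 0.42 (n = 5). All 13 cartilage genes rose from day 5 to day 10, when 19.2% of all genes did. Skeletal muscle genes were measured at every day: the mean of a list of 57 lay between 7.36 and 9.71 in all arrays. From day 0 to day 5 the median log2 change was −3.58 over 10 erythroid genes and −2.02 over 12 neutrophil genes, and each of these genes passed the test. In tissue extracts such as these, fewer cells of a type and less RNA per cell cannot be told apart.

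In old mice at day 5 all 10 genes were higher than in every young mouse of that day. Since this difference chose them, it is given as a description with no test. The log2 difference between age means ran from 0.91 (Mef2c) to 1.82 (Amy1), with a median of 1.21, against −0.02 over all genes. In this comparison 0.361% of all genes were called higher at a limma adjusted p under 0.05, and 0.943% had every old array above every young one. The rule sets no threshold. The smallest gap between the lowest old and the highest young array was 0.03 (Hspb7) and the largest 0.56 (Gca). One old array, replicate 4, was the highest of its group for 7 genes, and replicate 2 was the lowest for 9. Among the young, replicate 4 was the highest for 9. Gca was the exception in each of these 3 counts, and Hipk2 and Hspb7 were highest in old replicate 5.

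**Figure D1:**
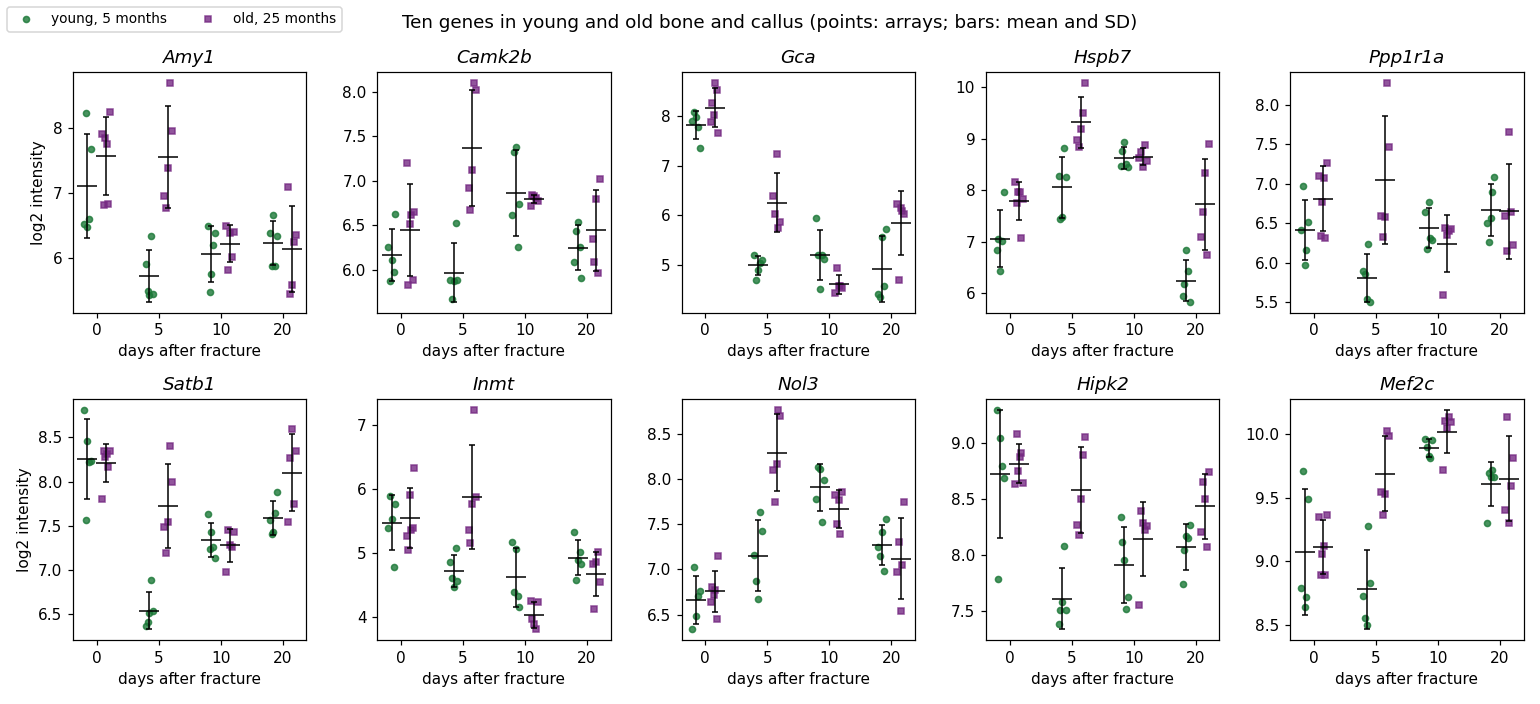
Log2 intensity (vertical axis) of each gene by days after fracture (horizontal axis). Each point is an array, circles for young and squares for old mice, and bars give the mean and SD. At day 5 the old arrays lie above the young in every panel. At days 0, 10 and 20 the ages overlap in every panel.

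At the other days the same genes did not separate the ages. Of the 10, none was called between ages at day 0, day 10 or day 20 by limma, where 0.0602%, 0.0502% and 0.00502% of all genes were called. In each of these 3 comparisons the ages overlapped for every one of the 10 genes, against 0.512%, 1.91% and 1.49% of all genes without overlap in either direction. The median difference was 0.19 at day 0 (9 genes above 0), −0.06 at day 10 (4 above 0) and 0.12 at day 20 (6 above 0), against −0.00, 0.00 and −0.03 over all genes. At an unadjusted p under 0.05 there were 1, 2 and 3 of the 10, and 1306, 1543 and 2920 of all genes. The change of the age difference from day 0 to day 10 and from day 10 to day 20 was tested too. No gene of all 19938 was called in either (0% of genes; 1034 and 1895 at an unadjusted p under 0.05, of which 1 and 3 were among the 10).

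**Figure D2:**
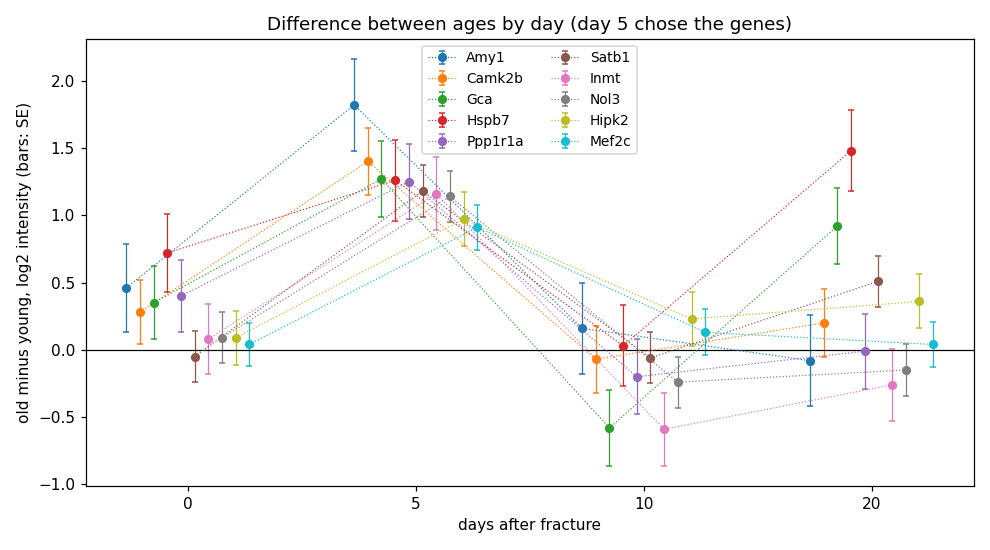
Difference of the old minus the young mean in log2 intensity (vertical axis) at each day after fracture (horizontal axis), 1 colour a gene, with bars for the SE of the limma fit. The day 5 values chose the genes and lie between 0.91 and 1.82. At day 20 Hspb7 (1.48) and Gca (0.92) lie highest.

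Amy1, the salivary and liver type of the starch-splitting enzyme amylase, had the largest difference at day 5. The gene lies at chr3:113555952-113577750 (GRCm38.p6), next to close copies, so its probe set may also read other amylases. In the young arrays of day 5 it stood at 5.90, 5.49, 5.43, 6.34 and 5.45, and in the old at 6.95, 6.77, 7.38, 8.69 and 7.95. The old arrays began 0.43 above the highest young one, and old replicates 4 and 5 were the highest. The difference was 1.82 ± 0.34 (SE), a 3.54-fold higher mean. Before fracture Amy1 stood at 6.52, 8.22, 6.48, 6.60 and 7.67 in young bone and from 6.81 through a median of 7.80 to 8.24 in old bone. At day 5 the young mean (5.72 ± 0.40, SD) lay below its own day 0 mean (7.10 ± 0.80), while the old means of the 2 days were 7.56 ± 0.60 and 7.55 ± 0.78. Over both ages the mean fell by 0.70 from day 0 to day 5 (SE 0.24, adjusted p = 0.014 by limma). This fall lay in the young mice, and the day 5 values of both ages helped choose the gene. At days 10 and 20 every array of both ages lay between 5.45 and 7.09.

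Camk2b encodes the beta subunit of calcium/calmodulin-dependent kinase II, which turns calcium pulses into phosphorylation in nerve and muscle (chr11:5969629-6066357). Young day 5 arrays read 5.89, 5.67, 5.87, 6.53 and 5.88, and old ones 6.92, 6.67, 7.12, 8.10 and 8.02. One young array stood apart upwards, and 2 old ones lay well above the other 3. The difference was 1.40 ± 0.25. By day 10 the young mean had reached 6.86 ± 0.48 and the old stood at 6.79 ± 0.05, its 5 arrays within 6.72 and 6.84. From day 10 to day 20 Camk2b fell by 0.48 (SE 0.18, adjusted p = 0.037), a call that is lost under quantile normalization (adjusted p = 0.078) and without any 1 of 9 arrays (adjusted p up to 0.081), namely young replicates 2 and 3 and old replicates 2 and 3 of day 10, and young replicates 1 and 5 and old replicates 1, 2 and 4 of day 20.

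Ppp1r1a encodes inhibitor-1, which blocks protein phosphatase 1 once protein kinase A has phosphorylated it (chr15:103530279-103538027). The young arrays at day 5 were at 5.90, 5.86, 5.54, 6.24 and 5.51 and the old at 6.60, 6.33, 6.58, 8.28 and 7.47. Old replicate 4 was far above the rest, and without it the difference of 1.25 ± 0.28 became 0.94. In young mice the day 5 mean, 5.81 ± 0.30, was the lowest of the 4 days, and those of days 0, 10 and 20 were 6.41 ± 0.38, 6.44 ± 0.25 and 6.67 ± 0.33. The young day 5 values helped choose the gene. None of the 3 steps between days passed the test over both ages (changes of −0.18, −0.09 and 0.32, adjusted p of 0.45, 0.77 and 0.22).

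Hspb7, a small heat shock protein of heart and skeletal muscle, lies at chr4:141420779-141425310. Of the 10 it had the largest difference at any other day than day 5. At day 5 young mice had 8.27, 7.44, 7.49, 8.82 and 8.25 and old mice 8.97, 8.84, 9.18, 9.50 and 10.08, a difference of 1.26 ± 0.30. At day 20 young mice had 5.95, 6.18, 6.84, 6.44 and 5.84, and old mice 7.10, 7.58, 8.34, 6.74 and 8.89. There 4 of 5 old arrays lay above every young one, and the fifth lay 0.10 below the highest young array. The day 20 difference of 1.48 ± 0.30 ranked 7 of 19938 genes from the highest, with an adjusted p of 0.069. It passed the test without the dimmer part of all genes (adjusted p = 0.042) and when young replicate 3 or old replicate 1, 2 or 4 of day 20 was left out; over all single arrays left out the adjusted p ran from 0.019 to 0.23. In the authors' deposited table the same comparison had a ratio of 2.79 and a step-up p-value of 0.073. At day 0 the difference was 0.72 ± 0.29 (adjusted p = 0.61), and at day 10, when all 10 arrays lay between 8.45 and 8.93, it was 0.03 ± 0.30.

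Over both ages Hspb7 rose from day 0 to day 5 by 1.26 (SE 0.21, adjusted p = 3.6e-06) and fell by 1.65 from day 10 to day 20 (SE 0.21, adjusted p = 1.8e-07). The other small heat shock genes and Bag3, the co-chaperone they bind, were measured beside it. From day 0 to day 5, 24.4% of all genes rose and 24.3% fell. Of these 7, 3 rose (Hspb8 by 1.22 ± 0.21, Bag3 by 0.94 ± 0.17 and Hspb1 by 0.92 ± 0.16) and none was called lower, a count of risers near the share over all genes. From day 10 to day 20 all 7 fell, beside 14.4% of all genes, with a median of −0.88 against 0.04 over all genes. Hspb7 was most like Cacng1, a calcium channel subunit of muscle, over the 41 arrays (Pearson r = 0.941), then Hspb1 (0.916) and the intermediate filament gene Des (0.913). These r values are descriptions of arrays that share days and ages.

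Nol3 encodes ARC, an inhibitor of apoptosis that is abundant in heart and skeletal muscle (chr8:105276145-105281939). It stood at 7.16, 6.87, 6.67, 7.64 and 7.43 in young callus at day 5 and at 8.10, 7.75, 8.17, 8.77 and 8.70 in old callus. The ages were 0.11 apart at their closest, and the difference was 1.14 ± 0.19. Nol3 rose by 1.01 from day 0 to day 5 over both ages (SE 0.13, adjusted p = 4.7e-08) and fell by 0.59 from day 10 to day 20 (SE 0.14, adjusted p = 0.00099). At day 10 the young mean was 7.91 ± 0.26 and the old 7.67 ± 0.21, so that young mice were highest at day 10 and old mice at day 5. The day 5 values of both ages helped choose the gene, so this unlike order of days is a description only. Of 12 other regulators of apoptosis, 3 rose and 5 fell from day 0 to day 5, beside 24.4% and 24.3% of all genes, so that the count of risers was near the share over all genes. The largest changes were in the survival genes Bcl2l1 (−1.37 ± 0.15) and Bcl2 (−0.75 ± 0.09) and in the caspase Casp2 (−0.88 ± 0.09).

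Mef2c, a MADS-box factor that drives muscle genes and cartilage maturation, had the smallest difference at day 5 (chr13:83504017-83667079). Young arrays were at 8.73, 8.55, 8.50, 9.28 and 8.83 and old arrays at 9.54, 9.36, 9.53, 10.02 and 9.98, a difference of 0.91 ± 0.17. At day 10 young arrays read 9.96, 9.90, 9.83, 9.81 and 9.95 and old ones 9.72, 10.10, 10.05, 10.13 and 10.09. There 4 of 5 old arrays lay above every young one and old replicate 1 below all of them, and the difference of 0.13 ± 0.17 did not pass (adjusted p = 0.92). Over both ages the rise from day 5 to day 10 was 0.72 ± 0.12 (adjusted p = 1.1e-05). The young mean went from 8.78 ± 0.31 to 9.89 ± 0.07 and the old from 9.69 ± 0.30 to 10.02 ± 0.17. The day 5 values of both ages helped choose the gene. Mef2c was 1 of 3 genes among the 10 that passed in that step, in which 35.6% of all genes did, and the only one that rose. The fall of 0.33 to day 20 (SE 0.12, adjusted p = 0.036) was lost under quantile normalization (−0.22, adjusted p = 0.21), with the numbering series of the sample names as a block (adjusted p = 0.054) and without any 1 of 11 arrays (adjusted p up to 0.079). These were young replicates 1, 2 and 5 and old replicates 2, 3, 4 and 5 of day 10, and young replicate 1 and old replicates 1, 3 and 4 of day 20. Among 11 other MEF2 factors and partners, 5 fell and 1 rose in that last step, beside 14.4% and 16.4% of all genes, with Vgll3 (−1.21 ± 0.14), Mamstr (−1.12 ± 0.15) and Mef2d (−0.80 ± 0.20) furthest.

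Satb1, a chromatin organiser best known from thymocytes (chr17:51736187-51833290), had 6.36, 6.41, 6.51, 6.89 and 6.53 in young and 7.49, 7.19, 7.54, 8.40 and 8.0 in old mice at day 5. The gap between the ages was 0.30 and the difference 1.18 ± 0.19. At day 0 the young read 8.81, 7.56, 8.46, 8.22 and 8.23, and the 6 old ran from 7.80 to 8.35 with a median of 8.30. Satb1 fell by 1.10 from day 0 to day 5 over both ages (SE 0.13, adjusted p = 8.9e-09), and rose by 0.53 from day 10 to day 20 (SE 0.14, adjusted p = 0.0029). The young mean was lowest at day 5 (6.54 ± 0.21) and the old mean at day 10 (7.28 ± 0.19), a description only, since the day 5 values helped choose the gene. At day 20 young mice had 7.56, 7.41, 7.43, 7.65 and 7.88 and old mice 7.54, 8.27, 8.59, 7.75 and 8.35, and the difference of 0.51 ± 0.19 did not pass (adjusted p = 0.23). Of 6 SATB partners in chromatin, 4 fell to day 5, among them Ctcf (−0.58 ± 0.08), beside 24.3% of all genes. From day 10 to day 20, 2 of them rose, Smarca5 (0.35 ± 0.11) and Chd4 (0.30 ± 0.06), beside 16.4% of all genes.

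Hipk2, a kinase of the nucleus that acts on p53 and other transcription regulators (chr6:38687512-38876331), fell from day 0 to day 5 as Satb1 did. Its young arrays at day 5 were 7.39, 7.51, 7.58, 8.08 and 7.51 and the old 8.27, 8.18, 8.50, 8.89 and 9.05, a difference of 0.97 ± 0.20. Hipk2 fell by 0.67 from day 0 to day 5 over both ages (SE 0.14, adjusted p = 0.00013). Its young mean went from 8.72 ± 0.57 to 7.61 ± 0.27 and its old mean from 8.81 ± 0.17 to 8.58 ± 0.38. The day 5 values of both ages helped choose the gene. From day 10 to day 20 its change of 0.22 (SE 0.14, adjusted p = 0.24) did not pass, while the rise of Satb1 did. Satb1 was among the 3 genes most like Hipk2 over the 41 arrays and Hipk2 among the 3 most like Satb1 (r = 0.882), with Bcas3 (0.887) and Tnrc6b (0.887) for Hipk2 and Padi2 (0.893) and Lmtk2 (0.884) for Satb1. After group means were taken off, Satb1 and Hipk2 still had an r of 0.81, the highest of the 45 pairs among the 10. Of 9 other genes of the HIPK and p53 list, Hipk1 fell to day 5 (−1.11 ± 0.09), and 2 rose, Axin1 (0.19 ± 0.06) and Siah2 (0.18 ± 0.06), beside 24.3% and 24.4% of all genes.

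Inmt, which methylates indoles and other small amines, lies at chr6:55170627-55174990 and had values of 4.86, 4.61, 4.48, 5.09 and 4.57 in young and 5.36, 5.16, 5.77, 7.24 and 5.88 in old mice at day 5. Old replicate 4 was far above the next array, and without it the difference of 1.16 ± 0.27 became 0.82. From day 5 to day 10 the Inmt mean over both ages fell by 0.97 (SE 0.19, adjusted p = 9.9e-05). The young mean hardly changed, from 4.72 ± 0.25 to 4.63 ± 0.46. In old mice, whose day 5 values helped choose the gene, it went from 5.88 ± 0.81 to 4.04 ± 0.20. At day 10 the old mice were the lower ones, at 4.26, 3.97, 3.89, 3.82 and 4.24 against 5.18, 4.39, 5.07, 4.33 and 4.17 in the young, and the difference of −0.59 ± 0.27 did not pass (adjusted p = 0.62). None of 6 other small-molecule methyltransferases passed the test in that step, with changes from −0.26 to 0.16, beside 35.6% of all genes that passed. From day 0 to day 5 Nnmt, which methylates nicotinamide, rose by 1.91 ± 0.11, and the Inmt mean changed by −0.22 ± 0.19 (adjusted p = 0.35).

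Gca encodes grancalcin, a calcium-binding protein of neutrophils and other myeloid cells (chr2:62664327-62694109). As for Satb1 and Hipk2, its means were highest in unfractured bone, with 7.90, 8.08, 7.99, 7.79 and 7.36 in young and from 7.66 through a median of 8.15 to 8.68 in old mice. At day 5 young callus had 5.19, 4.70, 4.90, 5.04 and 5.10 and old callus 6.39, 6.03, 7.25, 5.75 and 5.87. All 10 were below every day 0 array, and the day 5 difference between ages was 1.27 ± 0.28. Over both ages Gca fell by 2.38 on the log2 scale from day 0 (SE 0.20, adjusted p = 9.2e-13), the largest change of the 10 genes. The mean over both ages fell by a further 0.72 to day 10 (SE 0.20, adjusted p = 0.0044). This fall was in old mice only (6.26 ± 0.60 to 4.61 ± 0.19), whose day 5 values helped choose the gene. The young mean went from 4.98 ± 0.19 to 5.19 ± 0.50. At day 10 the old were at 4.43, 4.94, 4.58, 4.57 and 4.53, near the bottom of the young values of 5.94, 5.19, 4.52, 5.20 and 5.11. The difference of −0.58 ± 0.28 did not pass (adjusted p = 0.64).

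At day 20 Gca was again higher in most old mice. They had 6.23, 4.69, 6.15, 6.09 and 6.03, against 4.40, 4.34, 5.57, 4.58 and 5.72 in the young. Old replicate 2 fell among the low young arrays, and the other 4 lay above all young ones. The difference was 0.92 ± 0.28 (adjusted p = 0.17), and 1.20 without old replicate 2, when it still did not pass. Its change from day 10 to day 20, 1.50 ± 0.40, did not pass either (adjusted p = 0.28). Over the 41 arrays Gca was most like Cybb, the catalytic subunit of the phagocyte oxidase (r = 0.971), Rab27a (0.968) and Fcnb, a ficolin of myeloid cells (0.963).

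In the steps between days over both ages, 6 of the 10 genes passed from day 0 to day 5 (2 rose, 4 fell) beside 48.7% of all genes (24.4% rose, 24.3% fell), and 5 passed from day 10 to day 20 (1 rose, 4 fell) beside 30.8% (16.4% rose, 14.4% fell). From day 5 to day 10, 3 passed (1 rose, 2 fell) beside 35.6% (19.2% rose, 16.5% fell). The medians of the 10 in the 3 steps were −0.20, −0.06 and 0.13, against −0.03, 0.01 and 0.04 over all genes. The 10 genes thus had no common course over time. The mean over ages at day 5 includes the young and old arrays whose difference chose the genes. The falls of Inmt and Gca from day 5 to day 10 lay mainly in old mice. From day 0 to day 5 the falls of Amy1, Satb1, Hipk2 and Gca were larger in young mice. In that step the rises of Hspb7 and Nol3 were larger in old mice. Mef2c rose more in young mice from day 5 to day 10. Such splits by age are what the choice at day 5 favours, and they were not tested. The numbering series of the sample names also largely went with the day, so series and day cannot be fully told apart in these steps.

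The mean of the muscle genes was also higher in old mice at day 5, a difference that was not tested, and the ages overlapped. The 57-gene muscle mean was 8.50, 7.98, 7.86, 8.91 and 8.08 in young and 8.78, 8.65, 9.12, 9.71 and 9.58 in old mice, 0.90 higher in the old. Young replicate 4 lay above old replicates 1 and 2. The highest array of each age, replicate 4, and the lowest old one, replicate 2, were also those of most of the 10 genes. The 12 fast-fibre genes had differences from 0.40 to 1.58 (median 1.09). The median was 0.10 over 8 slow-fibre genes and −0.13 over 14 genes of muscle regeneration, and differences between these lists were not tested. At the other days the muscle mean of old mice differed from that of the young by 0.21 (day 0), −0.04 (day 10) and 0.60 (day 20), with exact permutation p values of 0.54, 0.81 and 0.17, two-sided, and adjusted p values of 0.81, 0.81 and 0.52 over the 3 days. At days 10 and 20 the smallest exact p that 5 against 5 arrays allow is 0.0079.

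**Figure D3:**
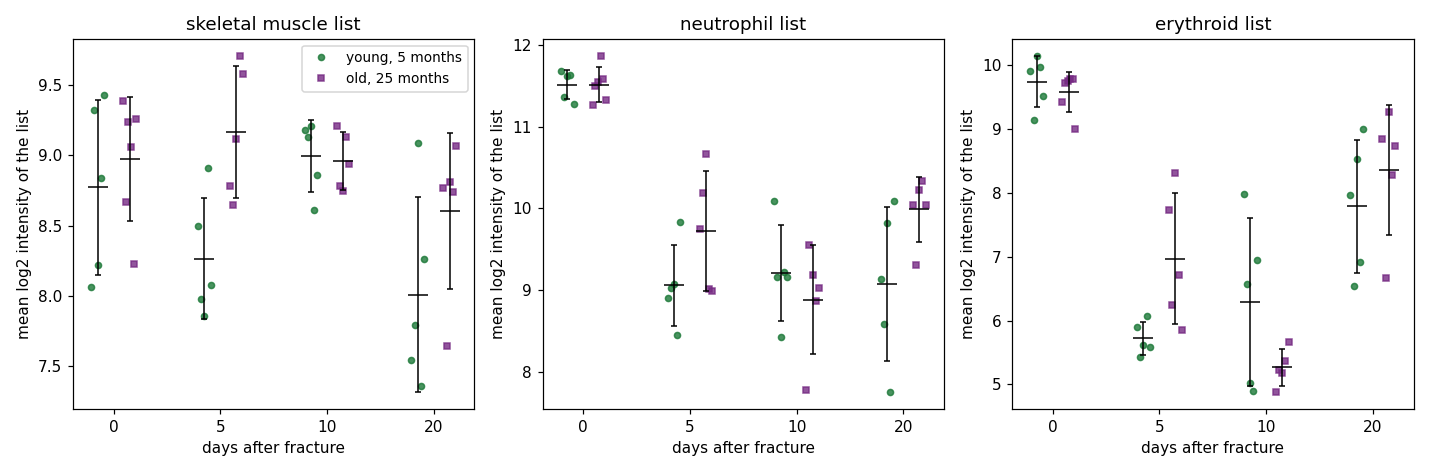
Mean log2 intensity of the skeletal muscle, neutrophil and erythroid lists (vertical axes) by days after fracture (horizontal axes). Points are arrays, circles for young and squares for old mice, and bars give the mean and SD. At day 5 the old means are higher for the muscle (9.17 against 8.27), neutrophil (9.72 against 9.05) and erythroid lists (6.97 against 5.72).

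To set the genes against muscle content without using the difference between groups, each was fitted on the muscle mean among arrays of the same age and day. A slope of 1 means that a gene moved as far as the muscle mean did. Of the 10, 5 passed, all with a positive slope, beside 5.83% of 19881 genes in either direction and 3.14% with a positive and 2.7% with a negative slope. Their slopes were 0.83 ± 0.14 for Amy1 (adjusted p = 7.5e-05), 0.63 ± 0.14 for Hspb7 (adjusted p = 0.0031), 0.52 ± 0.12 for Camk2b (adjusted p = 0.0041), 0.48 ± 0.14 for Ppp1r1a (adjusted p = 0.031) and 0.36 ± 0.09 for Nol3 (adjusted p = 0.014). Inmt (0.43 ± 0.14, adjusted p = 0.054) and Mef2c (0.26 ± 0.09, adjusted p = 0.079) were short of the threshold and passed under some alternatives. Gca had 0.21 ± 0.16 (adjusted p = 0.51), Satb1 −0.01 ± 0.11 (adjusted p = 0.96) and Hipk2 −0.02 ± 0.12 (adjusted p = 0.95). The median slope of the 10 was 0.39, against −0.01 over all genes. With the mean of the fast-fibre genes, which are part of the full list, the same 5 passed (adjusted p from 0.00015 for Amy1 to 0.043 for Ppp1r1a). On the mean of the slow-fibre genes in place of the full list none of the 10 passed, and 5 genes of all did. The adjusted p of the 5 genes then ran from 0.63 to 0.99, and the slope of Ppp1r1a turned to −0.01.

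Part of this rested on the day 5 arrays themselves. Without those 10 arrays the count over all genes went from 1160 to 533, and of the 10 genes only Amy1 passed (0.71 ± 0.16, adjusted p = 0.011), while the slopes of Hspb7, Camk2b, Ppp1r1a and Nol3 were 0.52, 0.38, 0.30 and 0.24 with adjusted p values of 0.082, 0.12, 0.31 and 0.22. The slope of Ppp1r1a also did not pass with replicate numbers as a block (0.43, adjusted p = 0.09), with the numbering series as a block (0.46, adjusted p rounding to 0.05) or without any 1 of 7 arrays (adjusted p up to 0.076). These were young replicates 2 and 3 and old replicate 5 of day 0, young replicate 4 and old replicates 2 and 4 of day 5, and old replicate 2 of day 20. Inmt passed when 1 of 7 arrays was left out (adjusted p from 0.022): young replicate 3 or 4 or old replicate 1 of day 0, or young replicate 1, 3 or 4 or old replicate 5 of day 20. It also passed with median centring (adjusted p = 0.045), without the dimmest genes (adjusted p = 0.041) and on the median of the muscle list (adjusted p = 0.027). Without the 2 arrays of most extreme muscle level it passed too (0.53, adjusted p = 0.045). Inmt is itself dim, and it was removed when the dimmer part of all genes was left out. Mef2c passed without young day 20 replicate 4 or old day 20 replicate 2 (adjusted p from 0.001), under quantile normalization (adjusted p = 0.036) and on the list median (adjusted p = 0.049). Without the 2 most extreme arrays its slope was 0.49 (adjusted p = 0.00012).

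**Figure D4:**
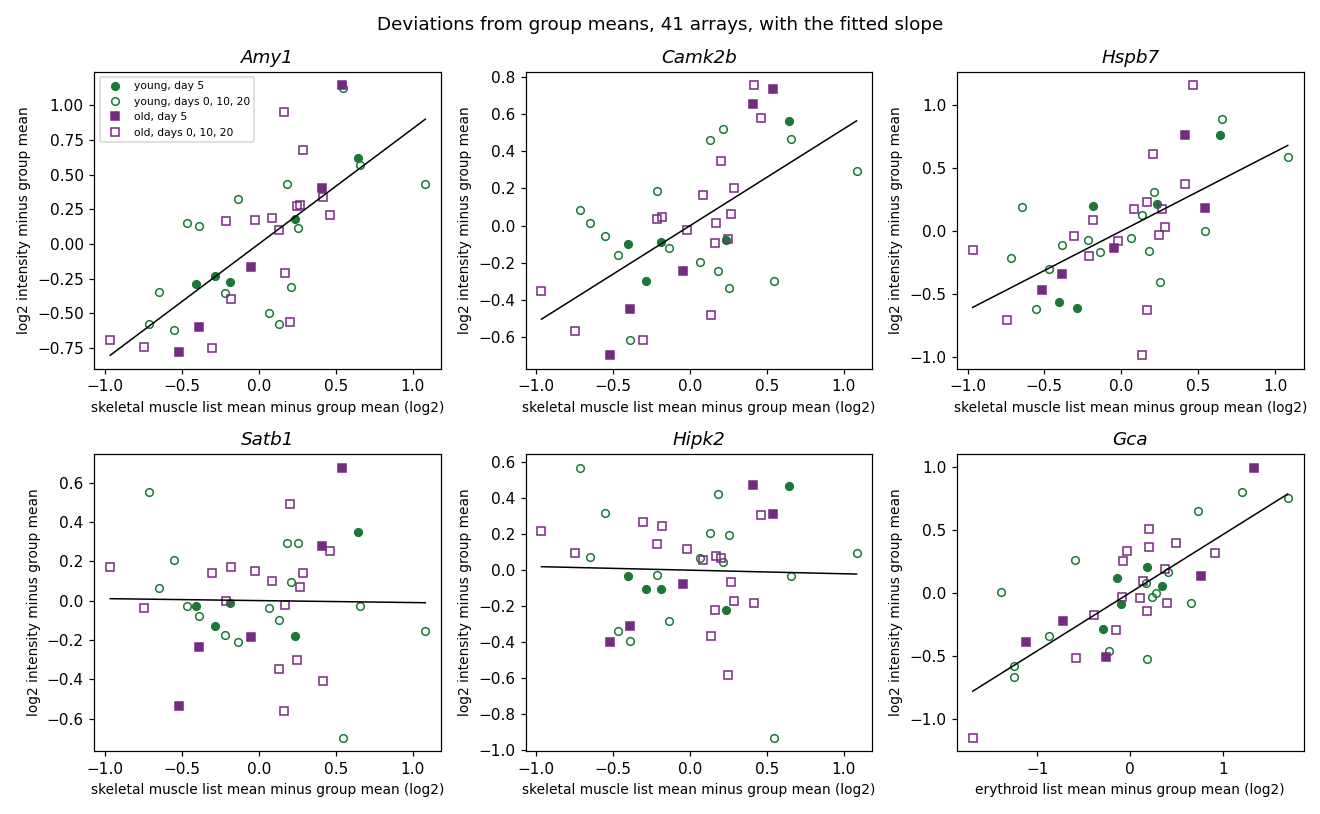
Deviation of a gene from its group mean (vertical axis, log2) against the deviation of a list mean (horizontal axis, log2) in 41 arrays, with the fitted slope as a line. The list is skeletal muscle for Amy1, Camk2b, Hspb7, Satb1 and Hipk2 and erythroid for Gca. Filled points are day 5 and open points the other days. The line is steepest for Amy1 (0.83) and flat for Satb1 (−0.01) and Hipk2 (−0.02).

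With the muscle mean as a term in the fit, the day 5 difference between ages became smaller for 8 of the 10 genes, and the values below are descriptions. What was left was 0.69 ± 0.27 for Hspb7 (55% of the difference), 1.07 ± 0.28 for Amy1 (58.8%), 0.82 ± 0.27 for Ppp1r1a (65.5%), 0.93 ± 0.23 for Camk2b (66.6%) and 0.77 ± 0.27 for Inmt (66.6%). For Nol3 it was 0.82 ± 0.18 (71.6%), for Mef2c 0.68 ± 0.18 (74.3%) and for Gca 1.08 ± 0.31 (84.9%). Satb1 (1.20 ± 0.22, 101%) and Hipk2 (0.99 ± 0.23, 102%) were as far apart with the term as without it.

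The muscle mean as a term also changed which genes passed between days. From day 10 to day 20, when 32 of the 57 muscle genes fell and none rose (14.4% and 16.4% of all genes), the falls of Camk2b (−0.13, adjusted p = 0.57) and Mef2c (−0.16, adjusted p = 0.36) no longer passed with the term. In the same step 4 genes passed as higher that had not passed without it: Inmt (0.76, adjusted p = 0.0027), Ppp1r1a (0.64, adjusted p = 0.013), Amy1 (0.61, adjusted p = 0.019) and Gca (0.62, adjusted p = 0.034). With the term Camk2b was higher at day 5 than at day 0 (0.44, adjusted p = 0.01) and Amy1 lower at day 10 than at day 5 (−0.72, adjusted p = 0.0015). Both steps include the young and old day 5 arrays whose difference helped choose the genes. Without the term, only the old means went these ways (Camk2b 6.45 to 7.37, Amy1 7.55 to 6.22). The young means went the other way (Camk2b 6.16 to 5.97, Amy1 5.72 to 6.06).

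Gca was also fitted on the means of marrow genes. These fits were added after its likeness to myeloid genes on the same arrays had been seen, so its slopes are descriptions with no test. Within groups its slope was 0.46 ± 0.06 on the erythroid mean and 0.60 ± 0.09 on the neutrophil mean, and 0.44 ± 0.07 and 0.65 ± 0.11 without the day 5 arrays. Their difference from its slope on the muscle mean, 0.21 ± 0.16, was not tested. Of the other 9 genes none passed on either list, where 5.73% of 19928 genes passed on the erythroid mean (4.47% with a positive slope) and 2.89% of 19926 on the neutrophil mean (2.51% with a positive slope). The 2 lists themselves moved together, since 9 of 10 erythroid genes had a positive slope on the neutrophil mean that passed. At day 5 the erythroid mean was 5.72 ± 0.26 (SD, n = 5; 5.43 to 6.07) in young and 6.97 ± 1.03 (5.85 to 8.31) in old mice, and the neutrophil mean 9.05 ± 0.50 (8.45 to 9.83) and 9.72 ± 0.73 (8.99 to 10.66). With these as terms, 0.70 ± 0.20 (55.1%) and 0.88 ± 0.21 (68.7%) of the Gca difference of day 5 were left. For the other 9 genes between 89.2% and 114% was left with either term. The part of muscle and marrow in the day 5 differences was not tested beyond these fits.

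The other genes of the pathways were fitted on the muscle mean in the same way, where 3.14% of all genes had a positive and 2.7% a negative slope that passed. Differences between these lists were not tested. Of 9 genes that build or break down glycogen and starch, among which Amy1 would belong, 7 had a positive and 1 a negative slope that passed. The phosphorylase kinase subunits Phkg1 (0.85 ± 0.10) and Phka1 (0.81 ± 0.10) and the phosphoglucomutase Pgm1 (0.79 ± 0.06) were the steepest. Of the 7 genes in the list of small heat shock genes and Bag3, 6 passed, led by Hspb6 (1.05 ± 0.14), Hspb8 (0.93 ± 0.08) and Hspb3 (0.77 ± 0.11). Of 13 subunits and regulators of protein phosphatase 1, 5 passed, and Ppp1r3a, which targets the phosphatase to muscle glycogen, had a slope of 1.51 ± 0.10. Of 12 calcium and calmodulin kinase genes, Camk2a (0.53 ± 0.06) and Ppp3cb (0.25 ± 0.07) had positive slopes and Camkk2 a negative one (−0.21 ± 0.06). Of 11 MEF2 factors and partners 3 passed, Stac3 (0.74 ± 0.10), Ppargc1a (0.69 ± 0.11) and Vgll2 (0.32 ± 0.07). None of 6 SATB partners passed, and none of 6 genes in a list made up mostly of penta-EF-hand proteins, the family of Gca.

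Each gene was also set against all others over the 41 arrays. Amy1 was most like Rragd (r = 0.867), the glycogenin gene Gyg (0.853) and Asb11 (0.843), and Camk2b most like Usp2 (0.821), the sarcomere gene Mypn (0.806) and the pyruvate dehydrogenase kinase Pdk2 (0.795). Ppp1r1a was most like the transcription factor Klf15 (0.775), Asb15 (0.731) and the muscle fructose bisphosphatase Fbp2 (0.725). For Nol3 these were Eda2r (0.850), Map1lc3a (0.846) and Castor2 (0.844), for Mef2c Amotl1 (0.898), Fxyd1 (0.892) and Shisa4 (0.880), and for Inmt Fmo2 (0.827), Kpna1 (0.822) and Hook1 (0.808). With group means taken off, the closest genes were Asb14 for Amy1 (0.883), Usp2 for Camk2b (0.841), Fbp2 for Ppp1r1a (0.823), Lmcd1 for Hspb7 (0.876), Tmem182 for Nol3 (0.736) and Gpt2 for Mef2c (0.829). For Satb1 it was Tecr (0.823), for Hipk2 Eif4ebp2 (0.876), for Inmt Asb15 (0.776) and for Gca Fcnb (0.873).

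Within groups, the pairs Camk2b and Hspb7 (r = 0.74), Amy1 and Inmt (0.66) and Ppp1r1a and Inmt (0.66) moved most alike after Satb1 and Hipk2, again as descriptions over 41 arrays that share the muscle mean. Gca had an r between −0.25 and 0.05 with each of the other 9. RefSeq promoters (GRCm38.p6) were available for 8 of the 10 genes, with 16 annotated starts. The 250 bases before each start were searched on both strands for CTA and TAG with any 4 bases between them, a core of the site that MEF2 factors bind, and for CAGCTG, an E-box form bound by myogenic factors. The first was in none of the 16 and in 3.2% of 32851 mouse promoter windows. The second was in 2 of the 16, before Inmt and before 1 of 5 starts of Satb1, and in 13% of all windows. The windows of the most alike pair of muscle-related genes and that of Inmt are shown 5′ to 3′ and end at the base before the start. Capitals mark CAGCTG, which lies 14 to 9 bases before the start of Inmt. The windows are chr4:141420529-141420778 on the + strand for Hspb7, chr11:6065749-6065998 on the - strand for Camk2b and chr6:55174991-55175240 on the - strand for Inmt.
Hspb7: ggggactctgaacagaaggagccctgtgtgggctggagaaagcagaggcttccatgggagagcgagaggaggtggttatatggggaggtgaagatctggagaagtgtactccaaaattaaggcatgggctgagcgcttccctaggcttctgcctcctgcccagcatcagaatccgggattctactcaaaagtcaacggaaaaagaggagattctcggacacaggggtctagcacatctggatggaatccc
Camk2b: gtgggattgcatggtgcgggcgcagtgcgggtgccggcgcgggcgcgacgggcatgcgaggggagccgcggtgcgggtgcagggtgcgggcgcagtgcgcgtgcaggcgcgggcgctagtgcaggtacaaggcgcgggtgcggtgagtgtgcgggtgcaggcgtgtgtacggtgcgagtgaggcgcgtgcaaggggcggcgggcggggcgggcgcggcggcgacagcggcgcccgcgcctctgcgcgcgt
Inmt: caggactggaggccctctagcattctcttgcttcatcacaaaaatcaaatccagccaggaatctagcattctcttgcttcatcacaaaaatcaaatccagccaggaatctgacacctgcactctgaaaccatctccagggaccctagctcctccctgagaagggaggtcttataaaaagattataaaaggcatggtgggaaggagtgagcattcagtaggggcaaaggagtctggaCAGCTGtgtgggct
These matches describe the letters in these windows only.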

How the data were processed

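The authors deposited normalized log2 intensities for 28815 probe sets on 41 arrays. Partek is named in the submitters' processing notes, and its version, background correction and normalization were not given in the sources used here. Array medians lay between 5.374 and 5.483, and nothing was normalized further in the main fit. The authors' deposited table also held a ratio and p-values for each age comparison, with step-up adjustment per the file headers, and the series' design text names an ANOVA. Probe sets with 1 gene (21782) were kept, and for the 999 genes with several the one with the highest mean, which gave 19938 genes. A limma 3.58.1 model (R 4.3.3) with 1 mean for each of 8 groups gave moderated two-sided tests, adjusted by Benjamini-Hochberg over all genes within a comparison and called at adjusted p under 0.05. Slopes on a list mean were tested within groups on genes outside the list. The fits were tested on simulated data. Python 3.11.15, pandas 2.3.3, numpy 2.4.6, scipy 1.17.1 and matplotlib 3.10.9 were used for the rest. The 10 genes and all gene lists were chosen with earlier results of these data known. All 10 genes were named. Of a list's genes, up to 3 with the largest change among those called were named, and the 3 genes with the highest r were named for each of the 10. Alternatives were quantile normalization, median centring, leaving out dim genes, probe set means, other variance models, only the groups compared, replicate number or numbering series of the sample names as a block, the muscle mean as a covariate, other muscle lists, and leaving out arrays. Neutrophil and erythroid means were added after the data were seen. Mice were distinct. Deviations of young and old samples with the same replicate number had correlations over 0.1 in 0 of 5 pairs at days 0 and 10 and in 3 of 5 at days 5 and 20 (from −0.59 to 0.30 in all), and not in every pair at any day, so the number was not used in the main fit. The number of arrays limits the precision.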

Additional observations from a re-analysis of the deposited data

Results flagged for a closer look

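Of 88 groups of 5 or 6 arrays checked over the 10 genes and the muscle list mean, 10 held an array far from the others, and chance gives about 4.4 (1 group in 20). In young callus at day 5, replicate 4 was far above the others for Camk2b (6.53, the next at 5.89) and for Hipk2 (8.08, the next at 7.58). In old callus at day 10, replicate 1 was far below them for Ppp1r1a (5.60, the next at 6.35), Hipk2 (7.56, the next at 8.22) and Mef2c (9.72, the next at 10.05), and replicate 2 far above for Gca (4.94, the next at 4.58). At day 20 old replicate 2 was far below for Gca (4.69, the next at 6.03) and for the muscle list mean (7.64, the next at 8.74), and young replicate 1 far below for Mef2c (9.30, the next at 9.66). In old bone at day 0 replicate 1 was lowest for Satb1 (7.80, the next at 8.17).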

How the results depend on the processing

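The median difference of the 10 genes at day 5 was 1.21, from 1.02 to 1.34 when 1 array was left out, and 0.87 with the muscle mean as a covariate. With 1 array left out, the number called among the 10 stayed at 0 at days 0 and 10, was 0 to 1 at day 20, 6 to 7 from day 0 to day 5, 3 from day 5 to day 10 and 3 to 7 from day 10 to day 20. It was 0 for both changes of the age difference and 4 to 7 for the muscle slope. On the marrow slopes only Gca was under the threshold, and its fits there are descriptions with no test. The muscle mean was called at 0 of the 3 days in each case. Over all genes the corresponding ranges were 1 to 31, 0 to 49 and 0 to 82 (days 0, 10 and 20), 9048 to 9889, 6599 to 7293 and 5530 to 6547 (steps), 0 to 5 for each change of the age difference, 848 to 1364 (muscle slope), 339 to 718 (neutrophil) and 818 to 1258 (erythroid).

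Of the 10, 1 was called at day 20 without the dimmer part of all genes, 3 from day 10 to day 20 under quantile normalization, 0 on the slow-fibre mean and 1 without the day 5 arrays. Over all genes the age count at day 0 (12) was 6 with median centring, 4 unmoderated, 0 with only the groups compared, 7 with the numbering series as a block and 20 with the muscle mean; that at day 10 (10) was 0 unmoderated or with only the groups compared. At day 20 (1) it was 3 with quantile normalization, 2 or 6 without dim genes, 2 with trend and robust settings, 0 unmoderated and 8 with the muscle mean. With the numbering series as a block 3577 and 3700 genes were called in the steps from day 5 to day 10 and from day 10 to day 20. The series went largely with the day. Nearly all day 5 names were lettered, no day 10 name was, and all day 20 names were low numbers. A change between these days cannot be fully told apart from a change of series. The muscle slope was called for 5 genes on the slow-fibre mean and 533 without the day 5 arrays. Reversed were the slope of Ppp1r1a on the slow-fibre mean (−0.01) and, with the muscle mean as a covariate, the last step of Atp2a1 (0.01) and Pgm1 (0.04). The causes were not tested.

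With the replicate number as a block, the counts over all genes were 3 at day 0, 2 at day 20, 366 for the neutrophil slope and 610 for the erythroid slope. The numbers do not pair the mice.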

Other observations

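The old arrays of day 5 were not all named alike: 4 of 5 had a lettered name, as did all 5 young ones. Within the lettered arrays the age difference of the 10 genes ran from 0.95 to 1.97 (median 1.27), and that of the muscle list mean was 1.00.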
